A study of Mus musculus with 4 samples.

Results

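The transcription factors *Mybl1*, *Tcfl5*, *Rfx2*, *Rfx1*, *Rfx3*, *Rfx4*, *Sox30* and *Crem*, the CREM coactivator *Fhl5* and the TBP-related factor *Tbpl1* are factors of pachytene spermatocytes and spermatids. These 10 genes were taken by their symbols from the 24411 genes measured in sorted spermatogenic cells, and 9 of them reached the mean of at least 1 TPM that 14512 genes passed, with *Fhl5* below it. TPM divides by transcript length and gives every library the same total, so levels of different genes can be compared within a library. RNA was sequenced from GFP-positive cells of mouse testes at postnatal day 18 (P18) in 2 control libraries (*Zfp541*+/-) and 2 libraries labelled *Zfp541* KO. All 4 carried a knock-in allele, *Rec8-3xFLAG-HA-p2A-GFP*, in which GFP is made with the meiotic cohesin REC8 and marks cells for the sort. The knock-in was heterozygous in 1 control testis and homozygous in the other and in both KO testes, and the labels do not say which control is which. The KO allele lacks exons 1 to 13 of *Zfp541* after CRISPR/Cas9 editing of fertilized eggs. By the labels the strain was a C57BL/6 and CBA mix, by the study's methods a C57BL/6 background. The comparison asked how far the expression of these factors differed when *Zfp541*, a gene for a zinc finger protein of meiotic prophase, was disrupted.

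MYBL1 (A-MYB) is a MYB family activator of the pachytene transcription program and of pachytene piRNA precursors, and TCFL5 is a basic helix-loop-helix factor of the same stage. RFX2 binds X-boxes in genes of cilia and flagella and is needed for spermatids to develop, and SOX30 is an HMG-box factor at the passage from late meiosis to spermiogenesis. CREM, with its LIM-domain partner FHL5 (ACT), switches on haploid genes such as those of protamines and transition proteins, and TBPL1 (TRF2) works in place of, or beside, the TATA-binding protein in spermatids.

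The promoters of 4 of these factors are shown because *Rfx1* and *Rfx3* had the same order of groups in all libraries while *Tcfl5* and *Rfx2* did not. *Mybl1* also had the same order, but no promoter window was found for it. Each run gives 230 bases before and 10 after the RefSeq transcription start (GRCm38.p6), 5′ to 3′ on the strand of the gene. Capitals mark the MYB motif CAGTTG, the RFX half-site GTTGCC and the half-site TGACG of the cAMP response element that CREM binds, and in *Rfx1* the first and second of these share bases at the start. The run of *Rfx3* holds none of these motifs. Positions are chr2:180642682-180642921 (reverse strand) for *Tcfl5*, chr17:56830999-56831238 (reverse) for *Rfx2*, chr8:84066606-84066845 (forward) for *Rfx1* and chr19:28011157-28011396 (reverse) for *Rfx3*.
Tcfl5: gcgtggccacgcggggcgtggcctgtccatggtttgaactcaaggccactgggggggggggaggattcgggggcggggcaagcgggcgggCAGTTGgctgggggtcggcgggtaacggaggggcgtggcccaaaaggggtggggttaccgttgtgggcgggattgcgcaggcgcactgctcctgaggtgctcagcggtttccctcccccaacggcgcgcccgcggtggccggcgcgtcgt
Rfx2: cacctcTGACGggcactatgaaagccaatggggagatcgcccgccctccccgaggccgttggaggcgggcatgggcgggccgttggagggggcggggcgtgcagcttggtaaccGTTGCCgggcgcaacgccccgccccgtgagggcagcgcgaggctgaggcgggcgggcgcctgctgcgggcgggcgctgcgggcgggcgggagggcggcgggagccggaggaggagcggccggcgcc
Rfx1: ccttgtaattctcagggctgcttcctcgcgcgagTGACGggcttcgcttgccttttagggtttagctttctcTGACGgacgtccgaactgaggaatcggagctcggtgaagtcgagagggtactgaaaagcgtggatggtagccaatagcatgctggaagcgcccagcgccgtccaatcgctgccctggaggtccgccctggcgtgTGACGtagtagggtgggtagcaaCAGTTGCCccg
Rfx3: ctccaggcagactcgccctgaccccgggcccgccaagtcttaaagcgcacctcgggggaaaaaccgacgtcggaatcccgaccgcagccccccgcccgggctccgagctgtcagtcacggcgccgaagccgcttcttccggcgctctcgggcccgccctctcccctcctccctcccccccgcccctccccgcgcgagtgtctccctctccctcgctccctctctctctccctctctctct

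Promoter windows of 300 bases (250 before and 50 after the start) were found for 8 of the 10 genes, 10 windows in all, and not for *Mybl1* and *Crem*. Motifs were sought on both strands. CAGTTG stood in the windows of *Tcfl5* (at -140), *Rfx1* (-1) and the second window of *Rfx4* (-40), counting the first transcribed base as +1, and in 13.7% of all 32851 windows. GTTGCC stood in *Rfx2* (-116), *Rfx1* (+2) and *Rfx3* (+32), 3 genes of the family that binds it, and in 12.5% of all windows. It was in neither window of *Rfx4*, a gene of the same family. TGACG began at -224 in *Rfx2*, at -196, -158 and -24 in *Rfx1* and at +17 in the first window of *Rfx4*, and it was in 20.8% of all windows. The E-box CACGTG, in 7.15% of all windows, was in no window of these genes, and none of the 4 motifs was in those of *Sox30*, *Fhl5* or *Tbpl1*. Guanine and cytosine made up 39.3% to 75.7% of the bases of these windows, against a median of 52.7% over all windows.

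The libraries differed in ways that bear on every value below. *Zfp541* measured 112 TPM in control 1, 72.2 TPM in control 2, 136 TPM in KO-labelled 1 and 151 TPM in KO-labelled 2. The targeted transcript was thus not lower with the label, the TPM values do not separate deleted exons from others, and each direction below rests on the labels alone. *Kctd19*, whose protein forms a complex with ZFP541, was at 379, 243, 258 and 318 TPM in the same order, and *Rec8*, the gene that drives the GFP, at 7.05, 27.9, 27.7 and 19.4 TPM. The controls stood far apart. Summed over 7 Leydig cell markers they had 3640 and 19.4 TPM, against 400 and 619 TPM in the KO-labelled libraries, and over 7 macrophage and red blood cell markers 962 and 29.4 TPM, against 803 and 637 TPM. The highest of these markers were *Insl3* (1925, 4.99, 186 and 366 TPM) and *C1qa* (477, 6.39, 402 and 328 TPM). At 0 were *Lhcgr* in control 2, *Hba-a1* in KO 2 and *Hbb-bs* in every library but KO 2, and no other of these 14 markers in any library. All 9 tested factors were higher in control 1 than in control 2, as were 66.0% of all genes tested, by a median of 0.91 on the log2 scale (0.032 to 1.63, all genes 0.36). The part of these differences in the values of the factors was not tested.

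No factor passed an FDR of 0.05 by limma on log2(TPM + 1), and neither did any other gene, so the share called was 0% of those tested. The adjusted p-values of the 9 factors from limma lay between 0.320 and 0.980. Of the 9, 6 had a positive difference (labelled KO minus control) and 3 a negative one, where 10007 of all 14512 genes tested were positive. The median of the 9 was 0.15, against 0.28 over all genes. By unadjusted p, with 0.05 as the limit, *Rfx1* and *Rfx3* were higher in the KO-labelled libraries, where 10.7% of all genes tested were higher and 3.73% lower. *Mybl1*, *Rfx1* and *Rfx3* were higher in both KO-labelled libraries than in both controls and none was lower in both, against 38.6% and 12.1% of all genes, so that 3 of 9 is close to the share of all genes. After median-ratio scaling 3 factors were above and 2 below both controls, with 22.6% and 22.8% of all genes. The calls turned on which control was kept, in fits that take the lone control to vary like the KO-labelled pair. Without control 1, 5 factors passed the FDR by limma as higher (*Mybl1*, *Rfx1*, *Rfx2*, *Rfx3* and *Sox30*), and without control 2, *Rfx1* and *Rfx3* passed as higher and *Tcfl5*, *Rfx2* and *Tbpl1* as lower, while 5610 and 2248 of all genes passed as higher and 1375 and 1875 as lower. *Rfx2* thus passed in opposite directions, and *Rfx1* and *Rfx3* in the same direction. Values for each factor follow on the TPM scale, with differences on the log2(TPM + 1) scale, which understates the change of low genes. In these bulk samples fewer cells of a type and less RNA per cell cannot be told apart, and each library came from 1 testis, the 2 controls from animals of different knock-in genotype. Whether the KO testes came from separate animals is not stated, so p-values measure the spread between these testes. Limma draws the variance of each gene towards a trend over all genes tested, so the p-values do not rest on that gene's spread alone.

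**Figure D1:**
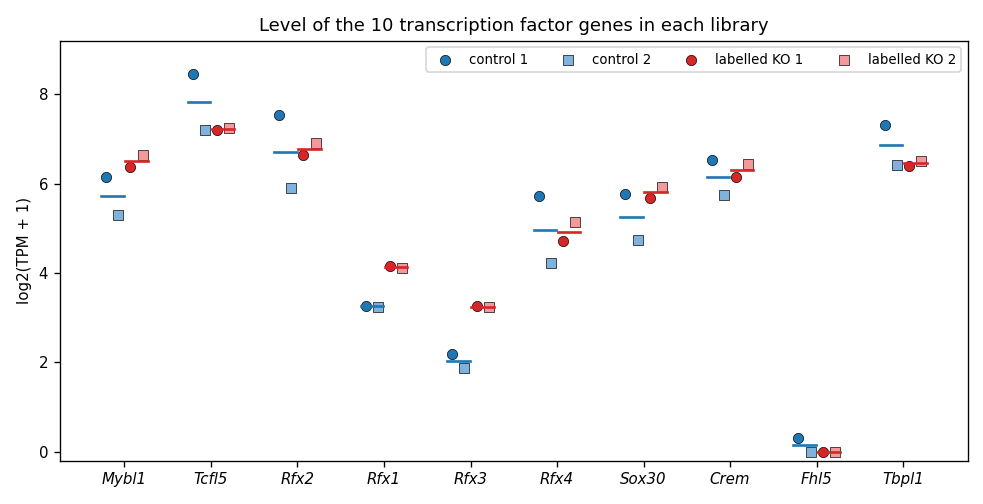
Level of the 10 factor genes in each library, as log2(TPM + 1). Circles and squares are libraries 1 and 2 of the controls (blue) and of the libraries labelled *Zfp541* KO (red), and bars are group means over n = 2. Both red points lie above both blue points for *Mybl1*, *Rfx1* and *Rfx3*, and the blue points of *Tcfl5*, *Rfx2*, *Rfx4* and *Sox30* are over 1 log2 unit apart.

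*Mybl1* (chr1:9667415-9700209, reverse strand, GRCm38), the pachytene activator, was at 70.3 and 38.3 TPM in the controls, compared with 81.5 and 98.1 TPM in the KO-labelled libraries. Both KO-labelled values were above both controls, and control 1 lay between control 2 and KO 1. Its mean was 54.3 ± 22.7 TPM (SD, n = 2) against 89.8 ± 11.8 TPM (SD, n = 2), a log2 difference of 0.77 (standard error 0.36, 95% interval -0.19 to 1.73, adjusted p = 0.396 by limma). The KO mean was 0.34 above control 1 and 1.20 above control 2.

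*Tcfl5* (chr2:180621956-180642708, reverse strand), the bHLH factor of pachytene cells, had the highest level of the 10 genes in every library. It reached 352 and 147 TPM in the controls, compared with 147 and 150 TPM in the KO-labelled libraries. Control 1 stood alone at the top, and control 2 and both KO-labelled libraries were nearly level in TPM. The median of all genes was 0.44 without control 1, and *Tcfl5* was at -0.43 relative to it. The log2 difference of -0.62 (standard error 0.46, 95% interval -1.86 to 0.63, adjusted p = 0.559 by limma) was made of -1.24 against control 1 and 0.012 against control 2. Of the exonic bases of *Tcfl5*, 7.39% (234 of 3166) overlap exons of *Col9a3* on the opposite strand, and whether reads were counted by strand is not given in the sources used here, so reads there cannot be told apart.

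*Rfx2* (chr17:56775897-56831013, reverse strand), the X-box factor of spermiogenesis, was at 184 and 58.8 TPM in the controls, compared with 98.9 and 119 TPM in the KO-labelled libraries. Both KO-labelled values fell between the controls. The log2 difference was 0.059 (standard error 0.59, 95% interval -1.53 to 1.65, adjusted p = 0.971 by limma), with -0.76 against control 1 and 0.87 against control 2, and it was -0.27 after median-ratio scaling and -0.11 after quantile normalization.

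*Rfx4* (chr10:84756062-84906538, forward strand), a relative with a testis form, showed the same layout. It reached 51.5 and 17.6 TPM in the controls, compared with 25.3 and 34.03 TPM in the KO-labelled libraries, again between the controls. Its log2 difference was -0.040 (standard error 0.58, 95% interval -1.60 to 1.52, adjusted p = 0.980 by limma). The TPM of *Rfx2* was 3.58, 3.35, 3.91 and 3.51 times that of *Rfx4* in controls 1 and 2 and KO-labelled 1 and 2, a ratio that overlapped between the groups.

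*Rfx1* (chr8:84066834-84096992, forward strand) and *Rfx3* (chr19:27761721-28011166, reverse strand), the RFX genes at work in many tissues and in ciliated cells, were low but separated the groups. *Rfx1* was at 8.63 and 8.42 TPM in the controls, compared with 16.9 and 16.1 TPM in the KO-labelled libraries, and *Rfx3* at 3.54 and 2.64 TPM and at 8.53 and 8.40 TPM. For *Rfx1* the controls were closer together (0.032 log2) than for any other tested factor. The log2 difference of *Rfx1* was 0.88 (standard error 0.31, 95% interval 0.051 to 1.71, adjusted p = 0.333 by limma), a 1.94-fold mean TPM. For *Rfx3* it was 1.22 (standard error 0.38, 95% interval 0.20 to 2.23, adjusted p = 0.320 by limma), a 2.74-fold mean TPM. Both were higher in all 4 pairs of a KO-labelled and a control library, by 0.83 to 0.93 for *Rfx1* and 1.05 to 1.39 for *Rfx3*, and stayed above the median of all genes by 0.60 and 0.94. Of the exonic bases of *Rfx1*, 0.653% overlap an antisense gene.

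**Figure D2:**
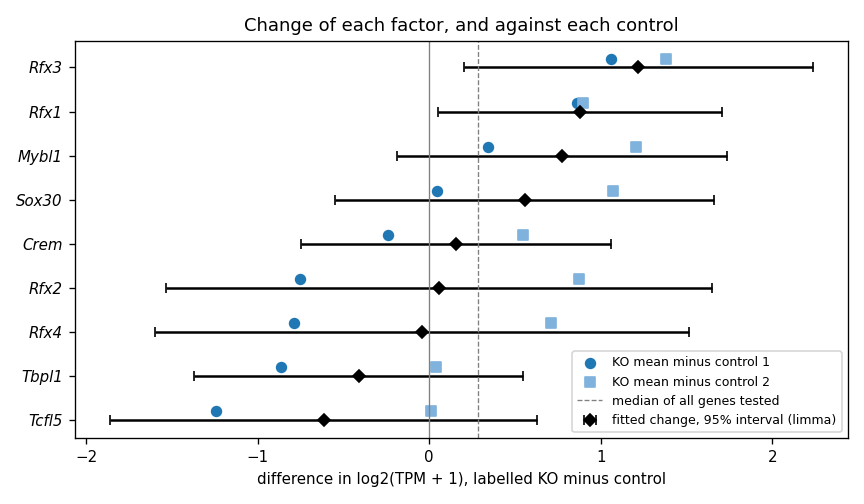
Difference in log2(TPM + 1), labelled KO minus control, for the 9 tested factors. Diamonds are limma estimates with 95% intervals, blue points the mean of both KO-labelled libraries minus control 1 (circle) or control 2 (square), and the dashed line is the median of all genes tested (0.28). Intervals of *Rfx1* and *Rfx3* lie above 0, and for *Rfx2*, *Rfx4*, *Crem*, *Tcfl5* and *Tbpl1* the circle and the square are on opposite sides of 0.

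*Sox30* (chr11:45980310-46017994, forward strand), the HMG-box factor, was at 53.1 and 25.6 TPM in the controls, compared with 50.5 and 59.4 TPM in the KO-labelled libraries. Control 1 lay within the KO-labelled values, and control 2 below them. The log2 difference was 0.56 (standard error 0.41, 95% interval -0.55 to 1.66, adjusted p = 0.554 by limma), being 0.043 against control 1 and 1.07 against control 2.

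*Crem* (chr18:3266048-3337748, reverse strand), the cAMP-responsive activator of haploid genes, was at 91.5 and 52.7 TPM in the controls, compared with 70.2 and 85.5 TPM in the KO-labelled libraries. The KO-labelled values again fell between the controls. Its log2 difference was 0.15 (standard error 0.33, 95% interval -0.75 to 1.06, adjusted p = 0.846 by limma), and it was -0.18 after median-ratio scaling and -0.047 after quantile normalization. The locus makes both activator and repressor isoforms, which a value per gene does not separate, and 8.01% of its exonic bases overlap *Gm6225* on the opposite strand. Its coactivator *Fhl5* (chr4:25199908-25242876, reverse strand) was listed at 0.23 TPM in control 1 and at 0 in the other 3 libraries, so it was not tested and has no fold change.

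*Tbpl1* (chr10:22703879-22731938, reverse strand), the TBP-related factor, was at 158 and 84.1 TPM in the controls, compared with 83.4 and 89.9 TPM in the KO-labelled libraries. As for *Tcfl5*, control 1 stood alone and control 2 was level with the KO-labelled libraries in TPM. Relative to the median of all genes without control 1 (0.44), *Tbpl1* was at -0.40. The log2 difference of -0.41 (standard error 0.35, 95% interval -1.37 to 0.55, adjusted p = 0.607 by limma) was -0.86 against control 1 and 0.041 against control 2. Exons of *Slc2a12* on the opposite strand overlap 12.4% of its exonic bases.

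The spread between the controls exceeded the difference between the groups for 7 of the 9 tested factors, the exceptions being *Rfx1* and *Rfx3*. The share of all genes for which this held was not counted, so it is not read as a trait of the factors. Over all genes tested the median absolute gap between the controls was 0.65, and the median difference between the groups was 0.28. Between the KO-labelled libraries the factors differed by 0.020 to 0.41 on the log2 scale (median 0.23), and 8 of 9 had a wider gap between the controls, as did 85.1% of all genes tested. The single pairs show this dependence. The median difference of the 9 factors was -0.38 and -0.097 for KO 1 and KO 2 against control 1, and 0.74 and 0.92 against control 2, where the medians of all genes were 0.17, 0.13, 0.45 and 0.43. With 2 libraries in each group, an exact two-sided permutation test of a single gene can give no p below 0.333.

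Within the control group the factors ranked by mean level from *Tcfl5* (249 TPM) over *Rfx2* (121), *Tbpl1* (121), *Crem* (72.1), *Mybl1* (54.3), *Sox30* (39.4) and *Rfx4* (34.5 TPM) to *Rfx1*, *Rfx3* and *Fhl5*, and neighbours down to *Rfx4* overlapped in range. In the KO-labelled group the order was *Tcfl5* (148 TPM), *Rfx2* (109), *Mybl1* (89.8), *Tbpl1* (86.7), *Crem* (77.8), *Sox30* (55.0) and *Rfx4* (29.7 TPM), followed by the same 3 genes, and only *Mybl1*, *Tbpl1* and *Crem* overlapped their neighbours. *Mybl1* was the fifth of the 10 genes in both controls, the fourth in KO 1 and the third in KO 2.

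Ratios of factors within a library do not depend on the scaling of that library. *Tbpl1* was 2.25 and 2.20 times *Mybl1* in the controls and 1.02 and 0.92 times in the KO-labelled libraries, a log2 difference of -1.20 where the controls differed by 0.035. *Tcfl5* was 5.01 and 3.84 times *Mybl1* in the controls and 1.80 and 1.53 times in the KO-labelled libraries. The ratio of *Crem* to *Mybl1* was 1.301 and 1.378 against 0.86 and 0.87. All 3 ratios were lower in both KO-labelled libraries than in both controls, so transcripts of *Mybl1* were more frequent relative to those of the other 3 genes there. *Tcfl5* to *Tbpl1*, at 2.22, 1.75, 1.76 and 1.67, overlapped between the groups. Over all 36 pairs of the 9 tested factors, 27 ratios (75%) did not overlap between the groups, beside 45.2% of all 98806653 pairs of genes above 0 in every library. The pairs share genes and libraries, and no test was made of these ratios.

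**Figure D3:**
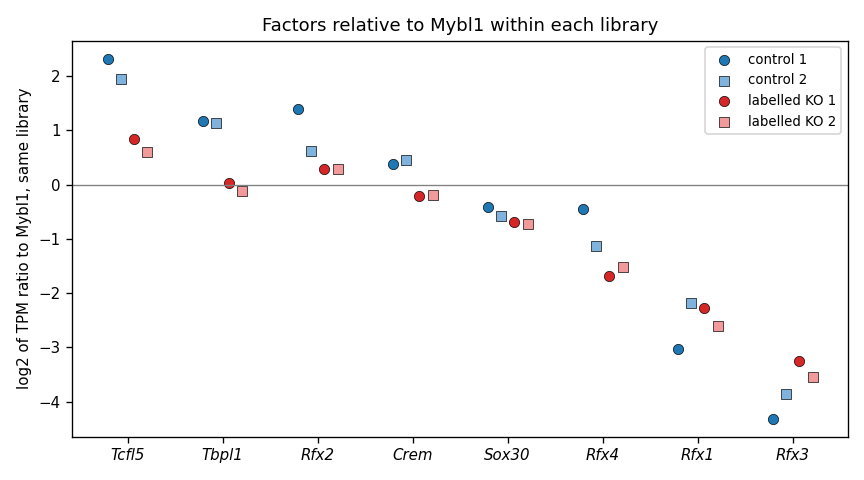
TPM of 8 factors divided by the TPM of *Mybl1* in the same library, on a log2 axis, with controls in blue and libraries labelled KO in red (circles library 1, squares library 2). For *Tcfl5*, *Tbpl1*, *Rfx2*, *Crem*, *Sox30* and *Rfx4* both red points lie below both blue points, *Rfx3* has them above, and *Rfx1* overlaps.

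Among the relatives and partners of these factors, 21 of 25 listed genes were tested, 13 with a positive and 8 with a negative difference, and none passed an FDR of 0.05 by limma. Their median of 0.24 became -0.085 after median-ratio scaling, 0.011 after quantile normalization and 0.40 without KO 2. *Rfx5*, which acts on MHC class II promoters, was at 38.4 and 21.3 TPM in the controls, compared with 59.3 and 68.1 TPM in the KO-labelled libraries (log2 difference 1.12, adjusted p = 0.320 by limma). *Rfx7* was at 27.6 and 14.3 TPM against 43.8 and 46.8 TPM (1.15, adjusted p = 0.326 by limma), so that the KO-labelled values of both were above the controls. Summed over *Rfx1* to *Rfx8*, transcripts of the family came to 362, 147, 280 and 324 TPM. *Rfx2* made up 50.8% and 40.1% of that sum in the controls and 35.3% and 36.9% in the KO-labelled libraries, and *Rfx3* 0.978% and 1.80% against 3.04% and 2.6%. The share of *Rfx1* overlapped, at 2.38% and 5.74% against 6.03% and 4.99%, although its level did not. *Rfx6* was at 0 in all 4 libraries.

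The largest negative differences in that list were those of *Gtf2a1l*, the germ cell TFIIA subunit that pairs with TBP-related factors, and *Fhl4*, a testis relative of *Fhl5*. *Gtf2a1l* was at 115 and 49.8 TPM in the controls, compared with 10.5 and 17.0 TPM in the KO-labelled libraries (log2 difference -2.42, standard error 0.51, adjusted p = 0.310 by limma), lower in both than in either control. Its ratio to *Tbpl1*, a pair chosen after the values were seen, was 0.73 and 0.59 in the controls and 0.13 and 0.19 in the KO-labelled libraries. *Fhl4* was at 674 and 196 TPM against 100 and 130 TPM (-1.67, adjusted p = 0.355 by limma), also without overlap.

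Known target genes of the factors had differences of both signs. Of 10 known targets of MYBL1 in spermatocytes, 5 had a positive and 5 a negative difference (median 0.18), and none passed an FDR of 0.05 by limma. The median changed sign without control 2 (-0.17) and after median-ratio scaling (-0.16), and it was 0.33 without KO 1 and 0.084 without KO 2. *Mov10l1*, a helicase of piRNA biogenesis, was at 195 and 284 TPM in the controls, compared with 472 and 473 TPM in the KO-labelled libraries (1.00, adjusted p = 0.311 by limma), and *Tdrd9*, of the same pathway, at 182 and 144 TPM against 283 and 310 TPM (0.87, adjusted p = 0.310). *Tdrd6*, of the chromatoid body, was at 213 and 25.5 TPM against 14.9 and 23.0 TPM (-1.94, adjusted p = 0.451 by limma), and *Mael* at 1194 and 1039 TPM against 719 and 778 TPM (-0.57, adjusted p = 0.377).

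Among 16 ciliary genes known as targets of the RFX family 12 differences were positive and 4 negative (median 0.21, none past the FDR by limma), where 10007 of all 14512 genes tested were positive. The median was 0.40 without control 1, -0.018 without control 2, 0.35 without KO 1 and 0.056 without KO 2, and -0.12 after median-ratio scaling. *Dync2h1*, the heavy chain of the ciliary dynein, was at 63.0 and 15.8 TPM in the controls, compared with 52.5 and 65.7 TPM in the KO-labelled libraries (0.87, adjusted p = 0.584 by limma), and the BBSome gene *Bbs2* at 63.2 and 47.5 TPM against 71.9 and 81.2 TPM (0.47, adjusted p = 0.416). The axonemal gene *Dnali1* was at 114 and 34.5 TPM against 7.30 and 12.2 TPM (-2.61, adjusted p = 0.311 by limma). *Spag6* was at 201 and 85.6 TPM against 37.0 and 51.2 TPM (-1.57, adjusted p = 0.320 by limma), a value that is uncertain because its close paralogue *Spag6l* may share reads. Of the 16 genes, 2 (*Dnali1* and *Spag6*) were lower in both KO-labelled libraries than in both controls, and 2 were higher in both. The shares of all genes tested were 12.1% and 38.6%. In the same libraries *Rfx2* and *Rfx4* lay between the controls, and *Rfx1* and *Rfx3* above both.

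Of 10 known targets of CREM only 4 reached the filter, with 1 positive and 3 negative differences, a median of -1.28 and none past the FDR by limma. That median was -0.16 without control 1 and -2.47 without control 2, and -0.22 over all 10 genes with no filter. *Pgk2*, the glycolytic kinase of meiotic and haploid cells, was at 79.0 and 18.4 TPM in the controls, compared with 1.59 and 2.71 TPM in the KO-labelled libraries (-3.67, adjusted p = 0.310 by limma). *Acr*, for acrosin, was at 118 and 36.5 TPM against 18.0 and 21.9 TPM (-1.68, adjusted p = 0.343 by limma), and *Ace* at 8.68 and 3.90 TPM against 7.5 and 4.92 TPM (0.043, adjusted p = 0.977). Of the 4 tested targets, 2 (*Pgk2* and *Acr*) were lower in both KO-labelled libraries than in both controls and none was higher in both. Of all genes tested, 12.1% were lower and 38.6% higher in this way. *Ace*, *Tnp2* and *Crem* itself overlapped between the groups. *Prm1*, *Prm2*, *Tnp1*, *Odf1* and *Smcp* were at or under 1.48 TPM in every library, and *Tnp2* reached 7.59 TPM in control 1 alone.

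**Figure D4:**
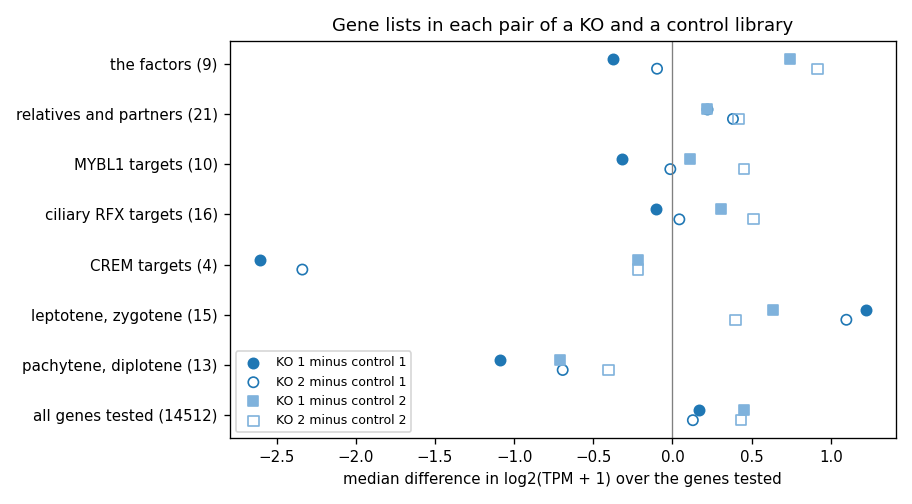
Median difference in log2(TPM + 1) over the tested genes of each list (number in brackets) for each pair of a KO-labelled and a control library. Circles are differences from control 1, squares from control 2, filled for KO 1 and open for KO 2. The factors lie at -0.38 and -0.097 against control 1 and at 0.74 and 0.92 against control 2, the pachytene and diplotene markers are below 0 and the leptotene and zygotene markers above 0 in all 4 pairs.

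Markers of the stages of prophase differed between the libraries beside the factors. Of 15 leptotene and zygotene markers 13 had a positive difference, where 10007 of all 14512 genes tested were positive and 4505 negative. Their median was 0.84, and their summed level was 1347 and 2251 TPM in the controls, compared with 2776 and 2721 TPM in the KO-labelled libraries. *Mei4* (2.09 and 4.60 against 9.91 and 8.2 TPM) and *Meiob* (82.7 and 156 against 242 and 266 TPM), both for proteins of meiotic recombination, had the largest positive differences, and *Spo11* (95.1 and 66.9 against 64.2 and 79.6 TPM) and *Syce3* (223 and 627 against 325 and 355 TPM) the negative ones. Of 13 pachytene and diplotene markers 10 were negative, with a median of -0.49 and sums of 9550 and 7728 TPM against 6062 and 6948 TPM. *Pou5f2* (70.5 and 6.31 against 0.33 and 0.14 TPM) and *Adam3* (283 and 16.9 against 4.99 and 10.8 TPM) had the largest negative differences, and *Spag6l* (1.83 and 3.31 against 3.47 and 3.74 TPM) and *Tex101* (1354 and 3627 against 2984 and 2742 TPM) the largest positive ones. The low value of *Spag6l* is uncertain, because its paralogue *Spag6* may share reads with it. Of 2 others of these 13 markers, chosen after their values were seen, *Ldhc* was high (3659 and 1819 against 768 and 1230 TPM) and *Hist1h1t*, for the testis histone H1t, stood between 1 and 2.55 TPM in every library. The study reported H1t-positive pachytene spermatocytes in the sorted population, so this low TPM does not show that they were absent. Without control 1 the leptotene and zygotene median was 0.49, and without control 2 that of the pachytene and diplotene markers was -0.87. Without KO 2 the latter was -0.75, and median-ratio scaling put the medians at 0.51 and -0.80. No marker passed an FDR of 0.05 by limma. *Pou5f2* and *Adam3* were over 10 times higher in control 1 than in control 2, while *Tex101* and *Spag6l* were lower there. All 9 tested factors were higher in control 1, as were 66.0% of all genes tested. The part of the stage of the cells in the values of the factors was not tested.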

How the data were processed

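RNA of sorted GFP-positive cells was measured in 2 control (*Zfp541*+/-) and 2 KO-labelled samples, grouped by their titles. Libraries were made with the TruSeq Standard mRNA kit. Per the submitters' processing notes, the authors used Trim Galore 0.5.0, cutadapt 1.16, STAR 2.6.0a and RSEM 1.3.1 with mm10, and they deposited TPM per gene. TPM keeps no depth, so counting error is unknown. In the deposited files, 27 entries carry a date in place of a symbol and were given no name.

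The 14512 genes whose mean reached 1 TPM were fitted on log2(TPM + 1) by limma 3.58.1 in R 4.3.3, modelling the variance trend. P-values were adjusted by Benjamini-Hochberg over all of them, with an FDR of 0.05. The fit was tested on simulated data. The members and lists were chosen with earlier results of these data known. Named were all 10 factors, the 2 largest positive and 2 largest negative differences in each list (fewer where fewer were tested), the highest marker of each other cell type, and *Zfp541*, *Kctd19* and *Rec8*. Further CREM targets (*Prm1*, *Prm2*, *Tnp1*, *Tnp2*, *Odf1*, *Smcp*), *Rfx6*, *Ldhc*, *Hist1h1t*, *Lhcgr*, *Hba-a1*, *Hbb-bs* and the ratio of *Gtf2a1l* to *Tbpl1* were added after their values were seen. Loci came from GENCODE M21 and promoters from RefSeq GRCm38.p6. Replicate numbers come from the sample titles. Other settings tried were the scaling, the filter, the pseudocount, the trend, the FDR, the replicate block and leaving out each sample.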

Additional observations from a re-analysis of the deposited data

How the results depend on the processing

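The number of genes past an FDR of 0.05 by limma stayed at 0 in each direction with another pseudocount, filter, scaling or variance trend and with the replicate block. Same-numbered samples deviated from their group means with a correlation of -0.16 across genes. With 2 samples in each group this value cannot settle whether the numbers pair the samples. With the numbers crossed as the block, an alternative chosen after seeing the data, 7 genes were higher and 80 lower. Leaving out each library in turn gave 0 to 5610 genes higher and 0 to 1875 lower. Without control 1 the counts were 5610 and 1375, and without control 2 they were 2248 and 1875, in fits that take the lone control to vary like the KO-labelled pair. Of the factors, 0 to 5 were then past the FDR as higher (5 without control 1, 2 without control 2) and 0 to 3 as lower (3 without control 2). Factors with both KO-labelled libraries above the controls numbered 3 to 7 and below them 0 to 5. Without control 1, 7 of 9 were above, beside 65.8% of all genes, and 5 were below without control 2, beside 36%. Below were 2 without KO 2 (15.7% of all genes), 2 after median-ratio scaling (22.8%) and 2 after quantile normalization (19.4%).

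Leaving out each library moved the log2 difference of *Mybl1* from 0.34 to 1.20, *Tcfl5* from -1.24 to 0.012, *Rfx2* from -0.76 to 0.87 (-0.075 without KO 2), *Rfx1* from 0.85 to 0.91, *Rfx3* from 1.06 to 1.38, *Rfx4* from -0.79 to 0.71 (0.17 without KO 1), *Sox30* from 0.043 to 1.07, *Crem* from -0.24 to 0.55 and *Tbpl1* from -0.86 to 0.041. *Mybl1*, *Sox30*, *Rfx1* and *Rfx3* kept a positive difference in every alternative run. Without control 2, *Sox30* (0.043) was below the median of all genes (0.15), while *Mybl1*, *Rfx1* and *Rfx3* stayed above that median in every run. *Tcfl5* and *Tbpl1* stayed below it in every run. Relative to it they were at -0.43 and -0.40 without control 1, and at -1.40 and -1.02 without control 2. With median-ratio scaling *Rfx2* was at -0.27 and *Crem* at -0.18, and with quantile normalization at -0.11 and -0.047. Median-ratio scaling moved *Mybl1* to 0.44, *Sox30* to 0.23, *Rfx1* to 0.57, *Rfx4* to -0.36, *Tbpl1* to -0.74 and *Tcfl5* to -0.95, and quantile normalization moved *Sox30* to 0.26 and *Rfx4* to -0.37. *Rfx3* was at 0.74 with a pseudocount of 5. These scalings put the median of all genes at -0.015 and 0.077 in place of 0.28. The cause of these shifts was not tested.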

Other observations

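Other cell types showed values that belong to no comparison above. Beside the counts below, 10007 of all 14512 genes tested had a positive difference. Of 11 spermatogonial markers 8 had a positive difference (labelled KO minus control) and 3 a negative one, with a median of 0.074 (0.38 without control 2, 0.040 without control 1, 0.018 without KO 1, 0.20 without KO 2 and -0.19 after median-ratio scaling) and sums of 440 and 986 TPM in the controls, compared with 827 and 756 TPM in the KO-labelled libraries. *Sohlh2*, a bHLH factor of differentiating spermatogonia, was at 49.5 and 99.7 TPM against 237 and 217 TPM (log2 difference 1.68, adjusted p = 0.310 by limma), and *Nanos3* at 0.73 and 1.88 TPM against 3.34 and 1.91 TPM (0.67). *Sohlh1* was at 16.1 and 64.3 TPM against 27.3 and 22.4 TPM (-0.38), and *Lin28a* at 8.97 and 15.9 TPM against 11.6 and 8.50 TPM (-0.25). The highest of these markers was *Uchl1* (127 and 559 against 273 and 225 TPM).

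Only 6 of 12 round spermatid markers reached the filter, 4 with a positive and 2 with a negative difference (median 0.46). The median was 0.16 without control 2 and 0.28 without KO 1, 1.00 and 0.15 with a pseudocount of 0.1 and 5, 0.90 with a mean of at least 5 TPM and 0.062 with no filter. *Spaca1*, of the acrosome membrane, was at 7.34 and 13.9 TPM against 27.0 and 26.6 TPM (1.32, adjusted p = 0.319 by limma), and *Acrbp*, for the proacrosin binding protein, at 227 and 67.1 TPM against 23.9 and 36.1 TPM (-2.03, adjusted p = 0.322 by limma), so the acrosomal genes in this list lay on both sides of the controls. *Tssk3* (0.25 and 0.59 against 2.51 and 1.3 TPM) and *Tssk1* (6.81 and 2.6 against 1.99 and 3.61 TPM) were low. All 9 Sertoli cell markers had a positive difference with sums of 906 and 894 TPM against 1231 and 892 TPM, led by *Clu* (688 and 501 against 843 and 576 TPM). Their median of 0.39 was 0.063 without control 1, 0.65 without control 2, 0.17 without KO 1, 0.61 without KO 2 and 0.074 after median-ratio scaling. Leydig cell markers had a median of 0.81 (4 positive and 3 negative), macrophage and red blood cell markers 2.27 (6 and 1). Both medians turned on 1 control, to 3.45 and 4.95 without control 1 and to -2.88 and -0.40 without control 2, and the Leydig median was 0.52 without KO 2 and 0.038 with a pseudocount of 5. The 2 of 4 peritubular myoid markers that reached the filter had a median of 0.49 (0.14 without control 1, 0.84 without control 2, 0.26 without KO 1), led by *Tagln* (7.46 and 7.69 against 11.8 and 10.3 TPM). None of these markers passed an FDR of 0.05 by limma.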
